A study of Mus musculus with 4 samples.

Results

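The tenascin and fibulin genes of the mouse were followed in engineered neural tissue that had or had not been exposed to an electric field. The 9 genes, Tnc, Tnr, Tnxb, Fbln1, Fbln2, Fbln5, Fbln7, Efemp1 and Efemp2, were selected by their symbols in the deposited count table, where all 9 were found among 23874 rows. The set was proposed with results of the EF and noEF comparison already known, so the members' values below are a description of these libraries and no p-value is given for a member. All 9 members passed the filter on low counts and were among the 14263 genes tested.

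The cultures were neurospheres, clusters of neural stem and progenitor cells, set in Matrigel, a basement membrane extract, under medium with 20 ng/ml basic fibroblast growth factor. EF tissue was stimulated at 150 mV/mm over 3 days, with 30 min of field per day, and grown on for 7 days more (2 libraries). The noEF tissue was the unstimulated culture (2 libraries), whose labels also give 7 days of further culture. The labels name both groups engineered neural tissue, with the cell type spelled "Neutral Stem Cells", whereas the series design speaks of cell suspensions as controls, and they state 3 replicates per group where 2 were analysed here. They give no strain and do not say whether replicates came from separate cultures, so errors and p-values cover the spread between these libraries, which may be technical. Polyadenylated RNA was sequenced, and a library held 33748880 to 34554537 counts and detected 15548 to 15723 genes.

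Tenascins are large matrix glycoproteins built from EGF-like repeats, fibronectin type III repeats and a fibrinogen-like globe. Tenascin C is made by radial glia, neural stem cells and astrocytes of injured tissue, tenascin R by oligodendrocyte lineage cells and some neurons, and tenascin X mainly by connective tissue. Fibulins carry calcium-binding EGF-like repeats and end in a module that defines the family. They join basement membranes, fibronectin networks and elastic fibres, and fibulin 2 also binds tenascin R's partners, the lecticans, which are the hyaluronan-binding proteoglycans of brain matrix.

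In EF tissue the transcripts of tenascin C and of fibulins 2 and 1 rose, at 2.41, 2.16 and 1.57 times the noEF level, while Efemp1, which encodes fibulin 3, fell to 0.399 times that level. Levels are given as CPM, counts scaled to a common library size with TMM factors, which adjust for composition, and a gene was called at a Benjamini-Hochberg adjusted p under 0.05 in edgeR's quasi-likelihood test over all tested genes. By that rule 4 of the 9 members were called, 3 higher and 1 lower. Over all tested genes 8.82% were called, 3.83% higher and 4.99% lower. The libraries of the groups did not overlap in 6 of the 9 members, as in 54.4% of tested genes. The median log2 fold change of the members was -0.22 and their median absolute log2 fold change was 0.65, against 0.01 and 0.22 over all tested genes. Because the set was chosen with this comparison known, nothing is read from these counts.

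The bases just upstream of the annotated start of the 4 called members are shown because they adjoin the starts of the transcripts that differed, read 5′ to 3′ on the gene's strand from RefSeq's GRCm38.p6 table, with matches to the searched motifs in capitals. For Tnc (chr4:64047016-64047185, minus strand), Fbln1 (chr15:85205779-85205948, plus strand) and Efemp1 (chr11:28853035-28853203, plus strand) they lie outside annotated exons, and for Fbln2 (chr6:91212734-91212763, plus strand) only 30 bases are shown, since GENCODE places the RefSeq start inside a longer first exon.
Tnc: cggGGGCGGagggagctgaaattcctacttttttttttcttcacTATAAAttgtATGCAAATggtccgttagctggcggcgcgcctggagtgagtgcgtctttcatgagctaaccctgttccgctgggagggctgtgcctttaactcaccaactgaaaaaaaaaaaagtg
Fbln1: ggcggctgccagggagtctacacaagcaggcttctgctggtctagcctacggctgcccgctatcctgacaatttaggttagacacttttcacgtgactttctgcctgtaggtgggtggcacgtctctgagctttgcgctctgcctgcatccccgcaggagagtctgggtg
Fbln2: gcaaaatcgaggccCCGCCCtgaggcggga
Efemp1: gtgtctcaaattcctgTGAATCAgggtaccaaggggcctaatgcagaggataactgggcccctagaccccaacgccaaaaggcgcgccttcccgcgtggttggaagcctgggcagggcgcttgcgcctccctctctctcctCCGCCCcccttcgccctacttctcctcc
Searched on both strands over the 250 bases upstream were the TATA box TATAAA, the CCAAT box CCAAT, the GC box GGGCGG, the AP-1 site TGANTCA, which reads as itself on the other strand, and the octamer ATGCAAAT, bound by POU factors. No matches overlapped each other in the printed stretches. Tnc held a GC box, a TATA box and the octamer, whose 5′ ends lay 167, 126 and 116 bases upstream of the start used here; a further RefSeq start lies downstream of it. Of 32851 promoter windows of the same length, 32.7% held the GC box, 12.4% the TATA box and 1.6% the octamer. Fbln2 and Efemp1 each held a GC box, 16 and 29 bases upstream, and Efemp1 an AP-1 match 154 bases upstream, a motif found in 6.75% of windows. Fbln1 held none of the searched letters upstream of this start but a GC box 11 bases upstream of a further start, and the CCAAT box, present in 33.8% of windows, was found in none of the 4. A match is a description of letters, not of binding.

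Tnc, the tenascin of neural stem cells and of glia after injury (ENSMUSG00000028364, GRCm38 chromosome 4, 63959785 to 64047015, minus strand), had 3636 and 3327 counts in EF 1 and EF 2, against 1313 and 1389 in noEF 1 and noEF 2. This was 101.9 and 95.3 CPM in EF, against 40.3 and 41.3 CPM in noEF. Both EF libraries lay above both noEF libraries, and the replicates of a group stood close together. The log2 fold change was 1.27 (SE 0.10), and the group means were 98.6 ± 4.61 CPM for EF and 40.8 ± 0.678 CPM for noEF (SD, n = 2 each). The counts are per gene, so the splice forms of tenascin C that differ in their fibronectin repeats cannot be seen. In bulk RNA fewer cells of a type and less RNA per cell cannot be told apart, which holds for every member.

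Tnr, the tenascin of perineuronal nets and nodes of Ranvier (ENSMUSG00000015829, chromosome 1, 159523769 to 159931729, plus strand), had 34.5 and 36.0 CPM in EF and 36.0 and 45.9 CPM in noEF. The groups met at 36.0 CPM, noEF 2 stood above the other libraries, and the gene was not called, with a log2 fold change of -0.22 (SE 0.14). Tnc and Tnr, which bind overlapping sets of surface receptors, thus differed in their ratio per length of exon. Tnc stood at 4.89 and 4.38 times Tnr in EF, against 1.86 and 1.49 times in noEF, and these ranges did not overlap.

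Tnxb, the tenascin of skin and other connective tissue, whose loss in humans gives a form of Ehlers-Danlos syndrome, was rare (ENSMUSG00000033327, chromosome 17, 34670535 to 34719815, plus strand). It had 32 and 41 counts in EF, against 93 and 91 counts in noEF. The 95% Poisson intervals, which cover counting error only, were 21.9 to 45.2 and 29.4 to 55.6 counts in EF, against 75.1 to 113.9 and 73.3 to 111.7 counts in noEF, so the intervals of the groups did not meet. With a log2 fold change of -1.42 (SE 0.45) it had the lowest value of the 9 members, yet it was not called. DESeq2 (-1.43), a fit with no filter on low counts (-1.42) and a fit without each library's trend on gene length and GC content (-1.49) did call it lower.

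**Figure D1:**
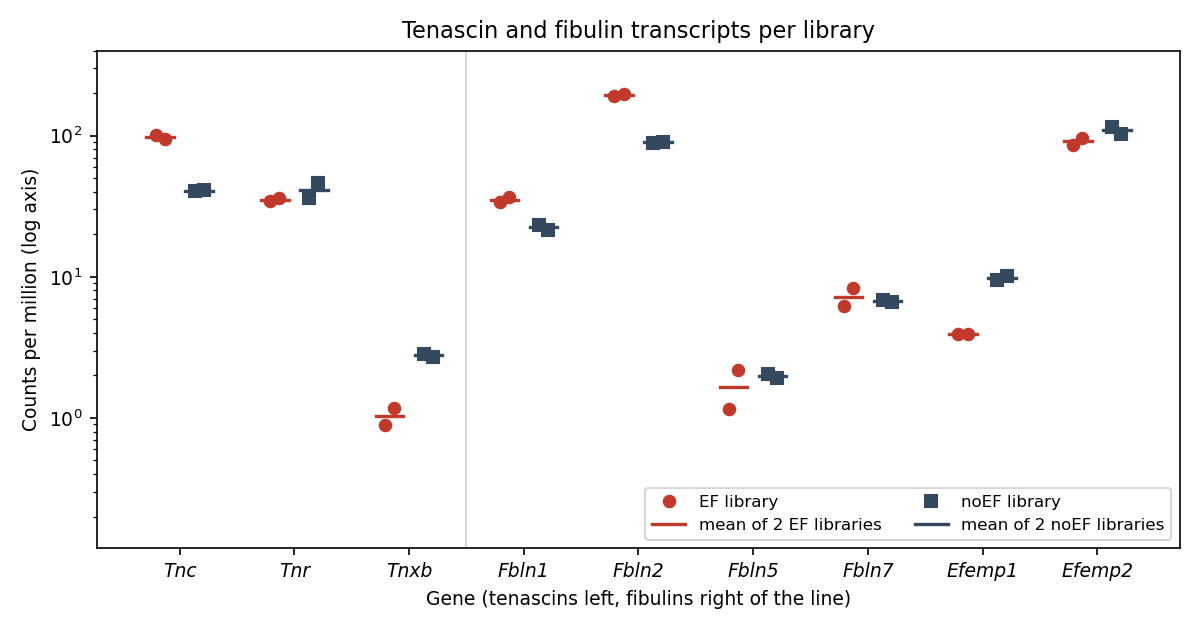
Level (CPM) of the 9 genes in each library on a log axis, EF (circles) left of noEF (squares), with bars at the mean of the 2 libraries of a group. Tnc, Fbln2 and Fbln1 stand higher in both EF libraries, at 95.3 to 101.9, 191.2 to 197.4 and 33.9 to 36.6 CPM, and Efemp1 and Tnxb stand lower, at 3.92 to 3.93 and 0.896 to 1.17 CPM.

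Among the fibulins, Fbln2, a ligand of fibronectin, nidogen and lecticans (ENSMUSG00000064080, chromosome 6, 91212455 to 91272540, plus strand), was the most abundant in EF. It had 6826 and 6888 counts in EF, against 2909 and 3043 in noEF, or 191.2 and 197.4 CPM in EF and 89.4 and 90.5 CPM in noEF. The groups were far apart beside their spread, with means of 194.3 ± 4.36 CPM for EF and 89.9 ± 0.779 CPM for noEF (SD, n = 2 each). The log2 fold change was 1.11 (SE 0.09). Fbln1, which binds fibronectin and acts as a cofactor of the protease ADAMTS1 (ENSMUSG00000006369, chromosome 15, 85205949 to 85286535, plus strand), had 33.9 and 36.6 CPM in EF, against 23.3 and 21.6 CPM in noEF. Both EF libraries were higher, with a log2 fold change of 0.65 (SE 0.13).

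Efemp1, which encodes fibulin 3, a matrix protein best known from an inherited macular disease in humans (ENSMUSG00000020467, chromosome 11, 28853204 to 28926743, plus strand), had 140 and 137 counts in EF, against 307 and 344 in noEF. These were 3.92 and 3.93 CPM in EF and 9.43 and 10.2 CPM in noEF, and both EF libraries were lower. The log2 fold change was -1.32 (SE 0.23). Efemp2 encodes fibulin 4, a close relative of fibulin 3, which brings lysyl oxidase to elastin (ENSMUSG00000024909, chromosome 19, 5473954 to 5482517, plus strand). It had 86.2 and 95.8 CPM in EF, against 116.0 and 102.5 CPM in noEF, a log2 fold change of -0.26 (SE 0.10) that was not called although the groups did not overlap. Without noEF 2 it was called lower at -0.35. Of its exon bases, 4.57% are shared with Mus81 on the other strand, which had 19.0 and 19.1 CPM in EF and 19.2 and 16.5 CPM in noEF, and whether counting used strand is not given in the sources used here.

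Fbln5 and Fbln7 did not separate the groups. Fbln5, which links elastin to cell surface integrins (ENSMUSG00000021186, chromosome 12, 101746565 to 101819055, minus strand), had 41 and 76 counts in EF, against 67 and 65 in noEF, so the EF libraries lay on either side of noEF. Its log2 fold change was -0.26 (SE 0.48), and it turned to 0.13 without EF 1. Fbln7, an adhesion protein first described in developing teeth (ENSMUSG00000027386, chromosome 2, 128862981 to 128897034, plus strand), had 220 and 291 counts in EF, against 224 and 224 in noEF. Its log2 fold change was 0.10 (SE 0.23), and it turned to -0.14 without EF 2.

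**Figure D2:**
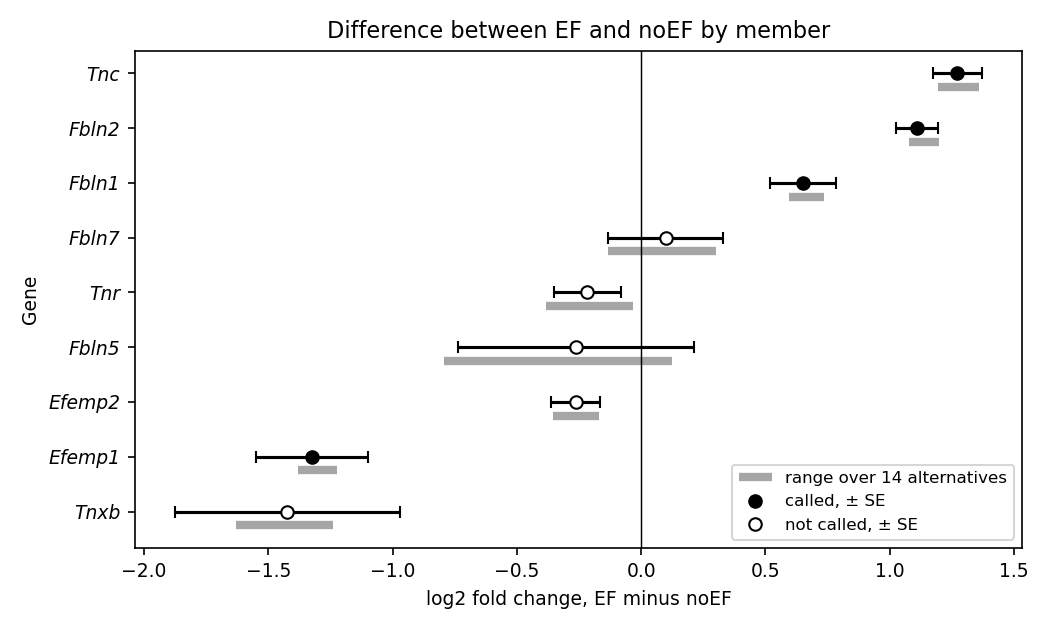
Log2 fold changes (EF minus noEF) of the 9 genes with their standard errors, filled where the gene was called in the fit across all genes, with a grey bar for the range over 14 alternative settings. Tnc, Fbln2 and Fbln1 lie to the right of 0 and Efemp1 to the left in all of them, while the ranges of Fbln7 and Fbln5 cross 0.

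Levels of different genes were compared per length of exon, taken as the union of a gene's annotated exons. The transcripts in use may be shorter than that union, which could change ratios and orders between genes. The levels per kb of exon summed over the 9 genes came to 80.4 and 84.6 CPM per kb in EF, against 65.3 and 62.7 CPM per kb in noEF. Fbln2 made up 37.3% and 36.6% of that sum in EF, against 21.5% and 22.7% in noEF. Efemp2 made up 28.3% and 29.9% in EF, against 46.9% and 43.2% in noEF. Tnc made up 16.3% and 14.5% in EF, against 7.96% and 8.48% in noEF. Fbln2 stood at 1.32 and 1.23 times Efemp2 in EF and at 0.458 and 0.525 times Efemp2 in noEF, so the leading fibulin was Fbln2 in both EF libraries and Efemp2 in both noEF libraries. The ratio of Fbln2 to Tnc was 2.29 and 2.53 in EF and 2.70 and 2.67 in noEF. Shares of a sum move together, so a higher share of Fbln2 and Tnc lowers that of the other genes by arithmetic.

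By mean level per kb in EF, the order was Fbln2 at 30.5, Efemp2 at 24.0, Tnc at 12.7 and Fbln1 at 8.06 CPM per kb. Tnr at 2.74, Fbln7 at 2.25 and Efemp1 at 1.93 CPM per kb followed, and Fbln5 at 0.241 and Tnxb at 0.0848 CPM per kb came last. The libraries of Fbln7 spanned 1.91 to 2.58 CPM per kb and enclosed those of Efemp1, so that pair could not be ordered in EF. In noEF, Efemp2 led at 28.8 CPM per kb, ahead of Fbln2 at 14.1 CPM per kb. Tnc, Fbln1 and Efemp1 lay together there at 5.25, 5.14 and 4.83 CPM per kb, and the libraries of neighbours in that order overlapped. Tnr at 3.18, Fbln7 at 2.10, Fbln5 at 0.289 and Tnxb at 0.228 CPM per kb completed the noEF order, with no overlap between neighbours.

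**Figure D3:**
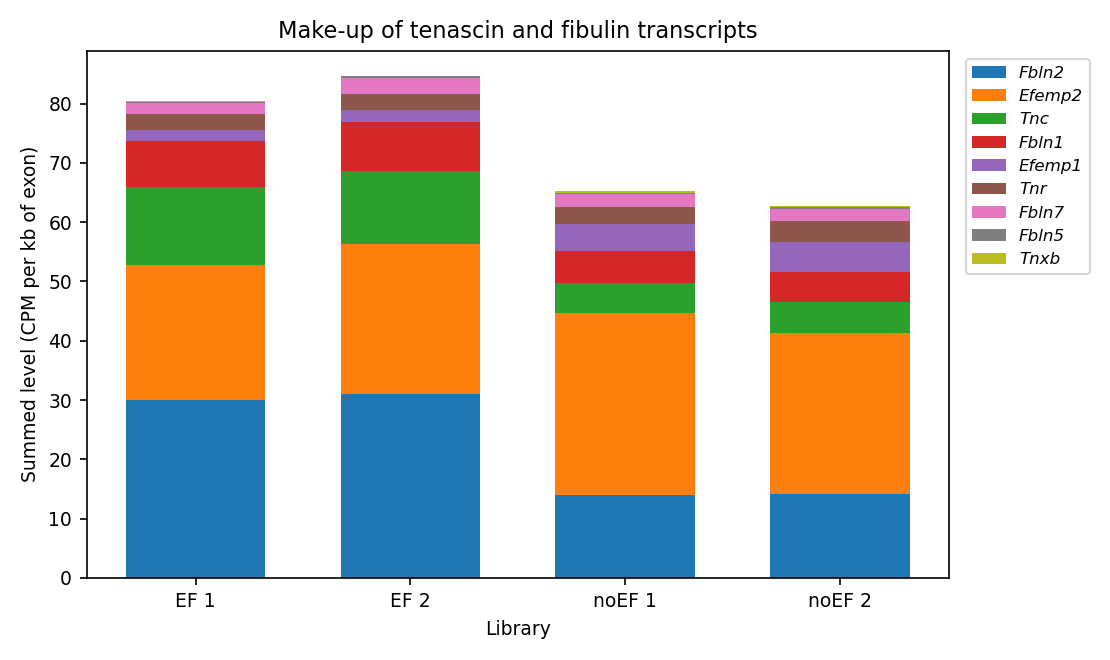
Level of each gene in CPM per kb of exon, stacked by library, EF left of noEF. The stacks reach 80.4 and 84.6 in EF and 65.3 and 62.7 in noEF, and the Fbln2 segment is 30.0 and 31.0 in EF and 14 and 14.2 in noEF.

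Family genes outside the set were scarce. Tnn, which encodes tenascin W, had 6 and 7 counts in EF and 0 counts in both noEF libraries, too few to be tested. With the noEF group set to a floor of 3 counts, its summed EF count of 13, scaled to library size, was 4.06-fold higher. That figure leaves out the error of the EF counts, so it is not a lower limit. Hmcn1, which encodes hemicentin 1, a giant relative of the fibulins, had 108 and 160 counts in EF, against 130 and 139 in noEF, and Hmcn2 had 0 and 14 counts in EF, against 17 and 10 in noEF. Neither was called by edgeR's quasi-likelihood test (adjusted p = 0.897 and 0.691). Of these 2 tested genes 0 were at an unadjusted p under 0.05 and 0 were called by DESeq2 or limma-voom.

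The genes whose profile over the 4 libraries lay nearest to that of a called member were searched for. The pool was 9249 tested genes outside the 9 members with a mean of at least 10 CPM. The measure was the root mean square difference of centred log2(CPM + 0.5). Since the members were left out of the pool, another member may lie nearer than a gene listed here. For Tnc these were Hells, Apln and Armh4, at differences of 0.03, 0.07 and 0.10. For Fbln2 they were Nell2, Hells and Apln, at 0.05, 0.07 and 0.08, and for Fbln1 they were Nuf2, Ncaph and Hist1h1c, at 0.03, 0.03 and 0.04. For Efemp1 they were Cacng5, Cldn10 and Rida, at 0.05, 0.06 and 0.07. Nearness is a description of these 4 libraries.

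Receptors of the tenascins moved in both directions. Of 15 receptor genes 14 were tested, and 1 was higher, 2 were lower and 11 were not called. The median log2 fold change was 0.18, against 0.01 over all tested genes, but it was -0.04 without EF 1, 0.02 without noEF 1 and 0.03 with the length and GC trend removed. Itgav, the alpha V integrin subunit that binds tenascin C, rose to 291.0 ± 4.44 CPM in EF, against 230.8 ± 14.8 CPM in noEF tissue (n = 2 each, SD). Its log2 fold change was 0.33 (edgeR adjusted p = 0.0235), and it lost its call without EF 1, EF 2 or noEF 1, with the replicate number as a block (the replicate block) and with the length and GC trend removed. The proteoglycan gene Sdc4 fell by 0.31 on the log2 scale (edgeR adjusted p = 0.0312). It was called in 6 of 14 alternatives, and not when libraries were scaled by their totals, with the replicate block, with the length and GC trend removed or without any one of the 4 libraries. Itgb1, the integrin partner subunit, was at 0.23 and not called (edgeR adjusted p = 0.112).

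2 further receptors bind both tenascins of the nervous system. Ptprz1, the receptor phosphatase of glial progenitors, had 2509 and 2499 CPM in EF, against 2030 and 2340 CPM in noEF, and was not called (log2 fold change 0.20, edgeR adjusted p = 0.17). Cntn1, the contactin that binds tenascin R, had 5147 and 4642 counts in EF, against 649 and 4913 in noEF. The library noEF 1 thus stood far below the other 3 for this gene, whose log2 fold change of 0.74 had an SE of 1.27. Both were named after their values were seen.

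Binding partners of tenascins and fibulin 2 among the lecticans, the hyaluronan matrix, fibronectin and perlecan included 10 tested genes. Of these 2 were called, both higher, 8 were not called, and the median log2 fold change was 0.23. No lectican was called. Bcan, Ncan and Vcan were at 0.09, 0.10 and -0.05 (edgeR adjusted p = 0.515, 0.516 and 0.843), and Acan was not tested. Hapln4, a link protein that ties lecticans to hyaluronan, had 4.03 and 6.22 CPM in EF, against 1.91 and 2.17 CPM in noEF, which is 1.33 ± 0.34 on the log2 scale (SE; edgeR adjusted p = 0.0247) and lost its call without EF 2. Fn1, the fibronectin that tenascin C and fibulins 1 and 2 bind, had 21.1 and 25.4 CPM in EF and 15.2 and 17 CPM in noEF. Its log2 fold change of 0.53 (SE 0.16) passed narrowly (edgeR adjusted p = 0.049) and was called in 8 of 14 alternatives. It was lost under DESeq2's size factors, with the replicate block, with the length and GC trend removed and without EF 2 or noEF 1. The hyaluronan receptor gene Cd44 at -0.28 and the perlecan gene Hspg2 at 0.36 were not called (edgeR adjusted p = 0.0573 and 0.183).

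Partners of the fibulins in elastic fibres and basement membranes gave 3 called genes among 14 tested, 2 higher and 1 lower, with 11 not called and a median log2 fold change of 0.09. Lamc1, the laminin gamma chain that nidogen and fibulins meet in basement membranes, rose by 0.34 (edgeR adjusted p = 0.0255), and lost its call with the replicate block, with or without trend removal, and without EF 1, EF 2 or noEF 1. Fbn2, a fibrillin of microfibrils, had 19.3 and 18.9 CPM in EF, against 12.5 and 13.9 CPM in noEF, and sat at the threshold with a log2 fold change of 0.54 (edgeR adjusted p = 0.04995). It was called in 7 of 14 alternatives, and not with DESeq2's size factors, the replicate block or the length and GC trend removed, or without EF 1, EF 2 or noEF 1. Ecm1, a secreted matrix protein that binds fibulin 1, fell by 0.60 (edgeR adjusted p = 0.0117), and lost its call without EF 1 and with block and trend removal together. Col4a1 at 0.26 was not called (edgeR adjusted p = 0.0988).

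Proteases that cut tenascins, fibulins or lecticans included 7 tested genes, of which 2 were higher and 5 were not called, and the median log2 fold change was -0.08. Adamts1, the protease that takes fibulin 1 as a cofactor, had 164.4 and 158.6 CPM in EF, against 116.0 and 122.2 CPM in noEF. Its log2 fold change was 0.44 (SE 0.09, edgeR adjusted p = 0.00521), and it was called in all 14 alternatives. Adamts4, a lectican-cutting protease, had 13 and 9.11 CPM in EF, against 5.81 and 5.95 CPM in noEF, which is 0.91 ± 0.22 on the log2 scale (SE; edgeR adjusted p = 0.0196) and lost its call without EF 1. Adamts5 at -0.40 and Htra1 at -0.23 were not called (edgeR adjusted p = 0.209 and 0.103). Mmp3, Mmp7 and Mmp12 had 0 counts in every library.

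Signals and transcription factors known to act on Tnc gave 1 called gene among 12 tested, with 11 not called and a median log2 fold change of -0.13. Tgfb3, a growth factor of the TGF-beta family, had 3.95 and 3.52 CPM in EF, against 7.13 and 6.81 CPM in noEF, and fell by 0.90 on the log2 scale (edgeR adjusted p = 0.0404). It lost its call with library totals, with block and trend removal together and without any one of the 4 libraries. Tgfb2 was at -0.29, Jun at 0.18 and Pou3f2, a POU factor of neural cells, at -0.29 (edgeR adjusted p = 0.0863, 0.182 and 0.233), and none of these was called. Fgf2, named after its values were seen, had 12 and 370 counts in EF, against 377 and 404 in noEF, so EF 1 stood far below the rest. It shares 9.44% of its exon bases with Nudt6 on the other strand, which had 196 and 116 counts in EF, against 141 and 120 in noEF.

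**Figure D4:**
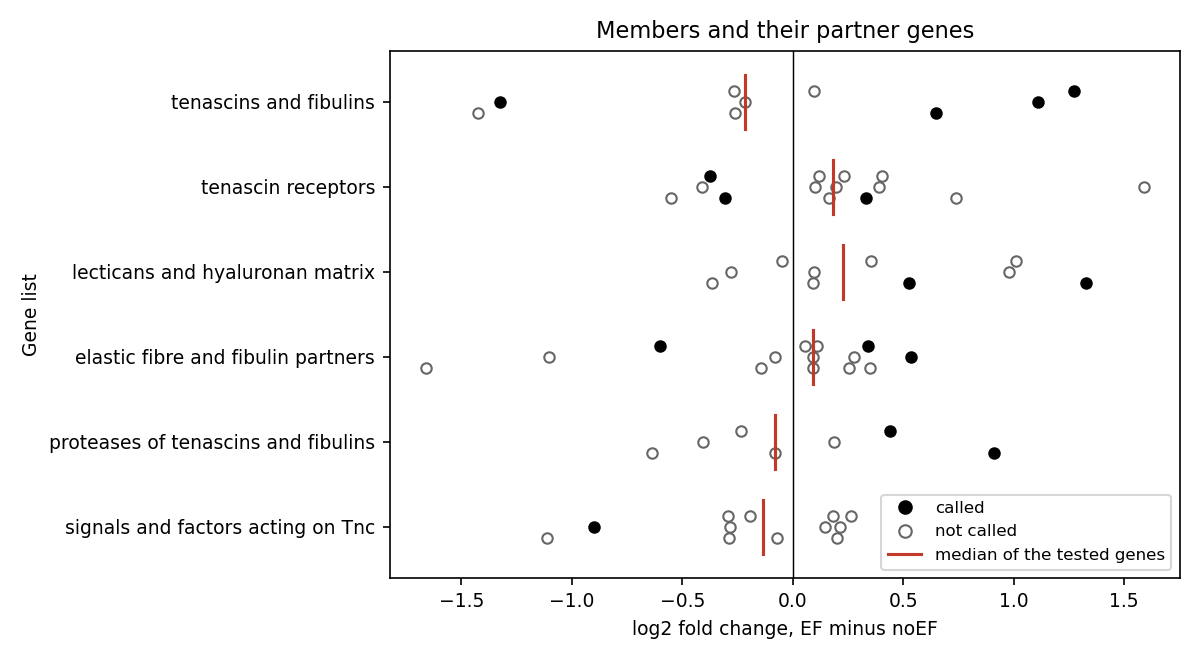
Log2 fold changes (EF minus noEF) of the 9 tenascin and fibulin genes and of the tested genes of 5 partner lists, filled where called, with a red bar at the median. The medians are -0.22 for the 9 genes and 0.18, 0.23, 0.09, -0.08 and -0.13 for the lists from top to bottom.

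Markers of the cells that could supply these transcripts stood as follows, and their part in the members' differences was not tested. Of 8 astrocyte and radial glia markers 4 were lower and 4 not called, with a summed level of 6381 and 6289 CPM in EF and 7631 and 7423 CPM in noEF. Most of that sum was Slc1a3 and Fabp7, which went in opposite directions. Fabp7 had 2281.3 and 2448.7 CPM in EF, against 3553.2 and 3156.8 CPM in noEF. The 4 not called were Slc1a3, Aldh1l1, Nes and Sox2. Slc1a3 had 2991.6 and 2732.7 CPM in EF, against 2484.1 and 2637.5 CPM in noEF (log2 fold change 0.16). Aldh1l1 had 355.5 and 335 CPM in EF, against 342.2 and 334.1 CPM in noEF (log2 fold change 0.03). The stem cell markers of the labelled cell type were present. Nes had 135.4 and 125.6 CPM in EF, against 122.4 and 114.7 CPM in noEF (log2 fold change 0.14, edgeR adjusted p = 0.369). Sox2 had 291.2 and 320.5 CPM in EF, against 357.5 and 380.2 CPM in noEF (log2 fold change -0.27, edgeR adjusted p = 0.0597). DESeq2 called 5 of the 8 markers and limma-voom called 4. Gfap, the astrocyte filament, fell by 1.45, Hopx, a radial glia factor, by 0.73, Aqp4, the astrocyte water channel, by 0.52 and Fabp7, a lipid-binding protein of radial glia, by 0.50 on the log2 scale (edgeR adjusted p = 1.06e-07, 0.00819, 0.00405 and 0.00195), while Tnc rose. Hopx lost its call without noEF 1, and Hopx and Fabp7 lost theirs with block and trend removal together. Of 7 tested oligodendrocyte lineage markers, a lineage that makes Tnr, Pdgfra was lower (-0.52, edgeR adjusted p = 0.0396, lost with library totals and without EF 1 or noEF 2) and 6 were not called, with a summed level of 2450 and 2797 CPM in EF and 2568 and 2413 CPM in noEF. Most of that sum was Olig1, at 2004.2 and 2302.3 CPM in EF and 2102.3 and 1949.5 CPM in noEF. Olig1 and Mbp were at 0.09 and 0.20 (edgeR adjusted p = 0.597 and 0.557). Mog had 0 and 2 counts in EF and 3 and 0 in noEF.

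The 6 neuron markers gave 0 calls by edgeR, 2 at an unadjusted p under 0.05 and 0 by DESeq2 or limma-voom, and summed to 567.8 and 544.8 CPM in EF and 458.8 and 535.5 CPM in noEF. Most of this sum was Map2, at 528.6 and 497.1 CPM in EF and 411.3 and 481.4 CPM in noEF. The median log2 fold change of the list was -0.18. Dcx was at -0.46, Map2 at 0.20, Snap25 at -0.53 and Tubb3 at 0.20 (edgeR adjusted p = 0.109, 0.189, 0.277 and 0.558). Fibroblast and meningeal markers, from cells that are rich in fibulins in the body, summed to 22.3 and 31.1 CPM in EF and 27.5 and 29.9 CPM in noEF. Nearly all of this was Foxc1, at 21.5 and 30.1 CPM in EF and 26.7 and 29.3 CPM in noEF. Lum and Foxd1 had 0 counts in every library, Col1a1 had 17 and 0 counts in EF and 14 and 0 in noEF, Pdgfrb had 0 counts in both EF libraries and 10 and 13 in noEF, and Dcn had 5 counts in noEF 2 and 0 elsewhere. In the other direction, Col1a2 had 6 and 18 counts in EF and 0 in both noEF libraries, and Twist1 had 4 and 16 counts in EF and 0 and 3 in noEF. Col3a1 had 2 and 0 counts in EF and 2 and 0 in noEF. Of the 3 tested, 0 were called by edgeR or DESeq2, 1 was called by limma-voom and 1 was at an unadjusted p under 0.05.

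Of 5 tested mural and endothelial markers Acta2, smooth muscle actin, was called. It had 8.68 and 4.84 CPM in EF, against 3.13 and 2.88 CPM in noEF (log2 fold change 1.17, edgeR adjusted p = 0.0309), and lost its call without EF 1 and in limma-voom. Tagln, Pecam1 and Kdr had at most 1.43 CPM in any library and were not called (edgeR adjusted p = 0.556, 0.567 and 0.618). Rgs5 was not called either and went the other way (log2 fold change -0.17, edgeR adjusted p = 0.922), and the list median was 0.70. The whole list summed to 12.9 and 8.53 CPM in EF and 6.02 and 5.35 CPM in noEF, and most of this was Acta2. Cdh5 had 0 counts throughout, as had all 5 microglia markers.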

How the data were processed

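Gene expression was measured by RNA sequencing of polyadenylated RNA in 4 libraries of mouse engineered neural tissue, 2 EF and 2 noEF, grouped by sample titles. The authors deposited 1 table of unscaled counts, whole numbers by gene, as its values show. The submitters' processing notes name, without role or order, the GRCm38 build and the tools DESeq2 1.44.0, HISAT2 2.0.4 and StringTie 2.2.1. How reads were counted, on which annotation and with or without strand, is not given in the sources used here, which matters for overlapping genes.

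All genes were fitted in edgeR 4.0.16 (R 4.3.3) after filterByExpr (minimum count 10, minimum total 15) and TMM scaling, with the robust quasi-likelihood F test and Benjamini-Hochberg adjustment over 14263 genes at 0.05. Standard errors were computed as the size of the log2 fold change over the root of F. The biological coefficient of variation was 0.161. Replicates of a group were not copies of each other (chi-square of counts 17.4 times its degrees of freedom in EF and 18.3 times in noEF). Fits were tested on simulated counts with the same dispersion for every gene and changes planted only in genes above a minimum level. Changes in genes with few counts and single outlying libraries were therefore not covered. Exon lengths, overlaps and positions came from GENCODE M21 on GRCm38, and upstream bases from RefSeq's GRCm38.p6 table, which held all 9 members. Levels per kb divide CPM by the union of a gene's exons.

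The 12 lists held 116 genes, all found in the table (older symbols included), of which 88 were tested. The genes named were all members, the 4 list genes with the smallest p and any called, and the 3 nearest profiles of each called member. These profiles were sought among tested genes of at least 10 CPM on average, with the 9 members left out. The marker genes Slc1a3, Aldh1l1, Nes, Sox2, Mog, Lum, Foxd1, Dcn, Col1a2, Col3a1, Twist1, Rgs5, Cdh5 and those of microglia fall outside this rule. So do the lectican genes, the proteases at 0, and Tnn, Ptprz1, Cntn1 and Fgf2. All of these were named after their values were seen. Some list genes that this rule names are counted in their lists but not reported here. The members and lists were chosen with earlier results of these data known. The alternatives were other scalings and filters, DESeq2 1.42.0, limma-voom in limma 3.58.1, a replicate block, length and GC trends removed with splines, and each library left out. Labels do not say that replicate numbers pair libraries.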

Additional observations from a re-analysis of the deposited data

How the results depend on the processing

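Tnc, Fbln1, Fbln2 and Efemp1 kept their direction and their call in all 14 alternatives, with log2 fold changes of 1.19 to 1.36, 0.60 to 0.74, 1.08 to 1.20 and -1.38 to -1.23. Tnr, Tnxb and Efemp2 kept their direction, and Tnr was never called. With single libraries left out Fbln5 ran from -0.79 to 0.13, above 0 without EF 1, and Fbln7 from -0.14 to 0.30, below 0 without EF 2, both uncalled throughout, and the cause was not tested. The number of lower members went from 1 to 2 with no filter, with DESeq2 and with the length and GC trend removed, through Tnxb, and to 3 with the crossed replicate block, through Tnxb and Efemp2. With 1 library left out, 4 to 5 members were called, 1 to 2 of them lower, and 3 were higher each time.

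Over all genes, 1258 were called, 546 higher and 712 lower. Higher genes were 43.4% of the calls, but 69.3% with library totals (1138 higher, 505 lower). Without a filter 2118 were called (915 and 1203). Leaving out 1 library gave 554 to 1855 calls, 217 to 790 higher and 337 to 1065 lower, fewest without EF 1. The replicate numbers are a bare number: deviations of same-numbered libraries had a correlation of -0.128. With a replicate block 978 genes were called, and 746 (301 and 445) with the length and GC trend removed as well. The crossed replicate block, added after that correlation was seen, gave 2625 calls (1120 and 1505).

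Of the genes in the partner and marker lists, 17 were called, 8 higher and 9 lower. All 17 kept their direction in every alternative, and Adamts1, Gfap and Aqp4 also kept their call. Calls of list genes numbered 7 to 18 with 1 library left out (3 to 12 higher, 4 to 8 lower), 12 (4 higher) with the replicate block, 10 (4 higher) with block and trend removal, 27 (14 higher) with the crossed block, and 5 lower with library totals. The medians of 6 lists changed sign under some setting: the protease median was -0.08 but 0.01 with library totals and 0.01 without noEF 1, the receptor median 0.18 but -0.04 without EF 1, and the oligodendrocyte lineage median 0.09 but -0.05 with no filter and -0.02 without EF 2. The neuron median was -0.18 but 0.13 without EF 1, that of family genes outside the members -0.56 but 0.07 without EF 1, and that of fibroblast and meningeal markers -0.12 but 1.67 without EF 1, 3.86 without noEF 1 and 3.13 without noEF 2. The main fibroblast and meningeal median rests on 3 tested genes, and Col1a1 and Pdgfrb among them had 0 counts in some libraries. The filter passes more genes when a library is left out, so the genes behind this median may differ. Depth limits Tnxb and Fbln5, which had the fewest counts of the members. Where 1 library was left out, the lone library of its group was assumed to vary like the other group.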
